A study of Mus musculus with 10 samples.

Results

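The genes examined were 3 cytokine genes of type 3 immunity, Il17a, Il17f and Il22, the IL-23 receptor gene Il23r, and 3 genes often listed with type 3 lymphocytes, Tmem176a, Tmem176b and Nrp1. They were taken by Ensembl identifier from the gene tables, were all found, and make up 7 of the 47643 genes listed. All 7 also passed the filter on low counts, as did 16208 genes in all. RNA came from innate lymphoid cells (ILCs), lymphocytes that lack rearranged antigen receptors, isolated from skin of adult mice of strain B6, with no treatment stated. The libraries were 3 of epidermal ILCs, 2 of dermal ILCs sorted as CCR6+, 2 of dermal ILCs sorted as Sca1+ and 3 of subcutaneous ILCs, and all 10 share strain and tissue label. CCR6 is a chemokine receptor found on many type 3 lymphocytes, and Sca1, the product of Ly6a, is a surface protein. The labels give neither the sort gates nor whether replicates came from separate animals, so the p-values measure only how far these libraries spread, in part perhaps for technical reasons.

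In type 3 immunity, IL-23 from myeloid cells binds a receptor made of IL-23R and IL-12Rβ1, and with IL-1 and IL-6 it drives type 3 lymphocytes to secrete IL-17A, IL-17F and IL-22. IL-17A and IL-17F act on epithelial and stromal cells through IL-17RA and IL-17RC and raise chemokines and antimicrobial proteins, while IL-22 acts on keratinocytes through IL-22RA1 and IL-10RB. In skin these cytokines come from ILCs, γδ T cells and other T cells, and they are known for their part in barrier defence and psoriasis.

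AGGTCA is a core of the DNA elements that many nuclear receptors bind, such as the product of Rora. The 250 bases before the transcription start of Il17a, Il17f and Il23r are shown because these 3 of the 7 genes are classed as type 3 genes and hold that core. They were taken from RefSeq on GRCm38.p6, the assembly of mm10, and each is written 5′ to 3′ on the strand of its gene. Capitals mark AGGTCA or its reverse complement TGACCT, and the TATA motif TATAAA.
Il17a, chr1:20730655-20730904, plus strand: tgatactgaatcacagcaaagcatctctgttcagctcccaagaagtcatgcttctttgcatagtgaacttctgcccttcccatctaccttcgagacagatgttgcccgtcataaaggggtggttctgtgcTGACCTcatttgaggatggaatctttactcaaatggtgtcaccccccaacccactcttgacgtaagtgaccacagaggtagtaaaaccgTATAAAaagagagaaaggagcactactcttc
Il17f, chr1:20784271-20784520, minus strand: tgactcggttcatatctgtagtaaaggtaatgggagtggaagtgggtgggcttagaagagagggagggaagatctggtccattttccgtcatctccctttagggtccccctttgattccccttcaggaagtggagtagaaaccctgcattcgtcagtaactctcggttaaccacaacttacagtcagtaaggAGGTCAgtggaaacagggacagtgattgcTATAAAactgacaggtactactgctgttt
Il23r, chr6:67491856-67492105, minus strand: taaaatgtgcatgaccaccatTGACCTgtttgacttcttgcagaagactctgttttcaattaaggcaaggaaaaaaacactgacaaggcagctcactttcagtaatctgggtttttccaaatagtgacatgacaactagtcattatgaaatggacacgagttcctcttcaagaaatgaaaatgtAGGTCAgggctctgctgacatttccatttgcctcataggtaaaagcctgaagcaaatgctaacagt

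Counted from the transcription start, the core begins at base -120 of Il17a in reverse complement, at base -58 of Il17f, and at bases -66 and, in reverse complement, -229 of Il23r. Nrp1 holds it in reverse complement at base -246. The core was not found in the windows of Il22, Tmem176a and Tmem176b. Searched on both strands, AGGTCA occurs in 14% of the 32851 RefSeq windows of this length. TATAAA begins at base -31 of Il17a at base -29 of Il17f and at base -170 of Il22, and was not found in the other 4 windows. It occurs on either strand in 12.4% of the windows. These matches describe letters only, and binding was not measured. Gene positions on mm10 are those of GENCODE M21. Il17a (ENSMUSG00000025929.4, chromosome 1, 20730905 to 20734496) and Il17f (ENSMUSG00000041872.9, chromosome 1, 20777146 to 20790617) lie on opposite strands, 42649 bases apart. The RefSeq start of Il17f lies inside that longer GENCODE span. Their coding sequences share 60.84% of aligned positions, so their reads are told apart.

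The depth behind each value was between 11627222 and 18118544 expected counts per library, and 3 counts corresponded to between 0.166 and 0.258 CPM, the counts scaled for library size. Expected counts are RSEM's estimates of reads per gene, and TPM corrects them for gene length. These floors cover counting error only. The 6 genes listed as ILC markers (Ptprc, Il7r, Thy1, Id2, Gata3 and Il2rg) were well covered. They summed to 5142 to 5726 CPM in epidermal libraries, 7071 and 7508 in dermal CCR6+, 9143 and 10103 in dermal Sca1+, and 8180 to 8366 in subcutaneous libraries. These genes are not exclusive to ILCs, so the sum does not tell ILCs from other lymphocytes. RNA of other cell types was present too. The 15 macrophage and dendritic cell markers summed to 475 to 561 CPM in epidermal, 1545 and 1738 in dermal CCR6+, 1544 and 3028 in dermal Sca1+ and 6348 to 11318 in subcutaneous libraries. The 8 keratinocyte markers summed to 2664 to 6597 CPM in epidermal and 30.4 to 48.2 CPM in subcutaneous libraries, with 1793 and 1234 in dermal CCR6+ and 1878 and 1639 in dermal Sca1+ libraries. In bulk RNA, fewer cells of a type and less RNA per cell cannot be told apart.

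**Figure D1:**
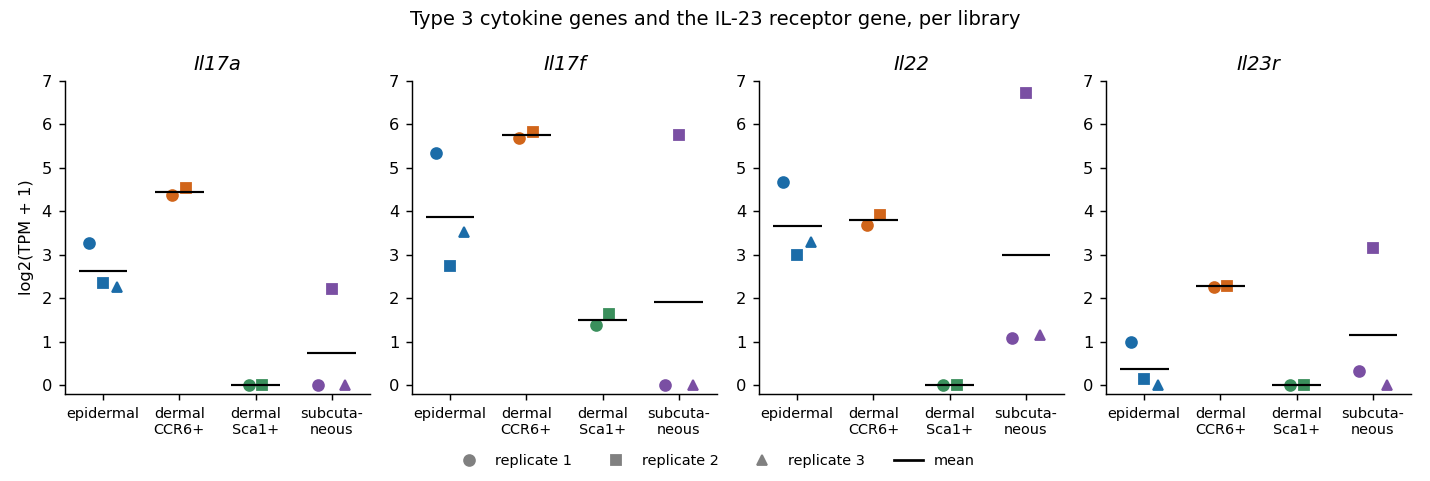
TPM of Il17a, Il17f, Il22 and Il23r in each of the 10 libraries, as log2(TPM + 1), by group. Each symbol is a library, with its shape giving the replicate, and the black line is the mean of the group on this scale. Subcutaneous replicate 2 stands above the other subcutaneous libraries in all 4 genes. The Sca1+ libraries are at 0 except for Il17f, at 1.61 and 2.11 TPM.

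All 4 type 3 genes were found in both dermal CCR6+ libraries, and 3 of them in every epidermal library. They were absent or low in dermal Sca1+ libraries. Among subcutaneous libraries they were highest in replicate 2 and absent or low in the other 2. Il17a, which encodes IL-17A, had 97, 47 and 56 expected counts in epidermal libraries, 241 and 252 in dermal CCR6+ libraries, 0 and 0 in dermal Sca1+ libraries, and 0, 43 and 0 in subcutaneous libraries. In TPM this was 8.66, 4.14 and 3.79 in epidermal, 19.9 and 22.1 in dermal CCR6+, 0 in both dermal Sca1+ libraries, and 0, 3.65 and 0 in subcutaneous libraries. Both CCR6+ libraries lay above every other library, each epidermal library lay above each subcutaneous one in TPM but not in CPM, and 4 of 10 libraries held under 3 counts. Against a floor of 3 counts over both Sca1+ libraries, the mean level was at least 146-fold higher in dermal CCR6+ and at least 34-fold higher in epidermal ILCs.

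Il17f, which encodes the related cytokine IL-17F, had 445, 65 and 156 expected counts in epidermal libraries, 614 and 641 in dermal CCR6+, 20 and 18 in dermal Sca1+, and 0, 626 and 0 in subcutaneous libraries. This made 39.4, 5.68 and 10.5 TPM in epidermal, 50.3 and 55.7 in dermal CCR6+, 1.61 and 2.11 in dermal Sca1+, and 0, 53.1 and 0 in subcutaneous libraries. It was the 1 cytokine gene of the 3 with counts in Sca1+ libraries, and 2 of 10 libraries held under 3 counts. Epidermal libraries spread widely and did not overlap with the CCR6+ libraries above them or the Sca1+ libraries below them. In TPM, Il17f exceeded Il17a in every library that had both, by 4.55, 1.37 and 2.77 times in epidermal, 2.53 and 2.52 times in dermal CCR6+ libraries, and 14.6 times in subcutaneous replicate 2.

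Il22 (ENSMUSG00000074695.3, chromosome 10, 118204942 to 118210047), which encodes the keratinocyte-acting cytokine IL-22, had 256, 73.8 and 122 expected counts in epidermal libraries, 133 and 151 in dermal CCR6+, 0 and 0 in dermal Sca1+, and 11, 1153 and 12 in subcutaneous libraries. In TPM it stood at 24.5, 6.98 and 8.88 in epidermal, 11.8 and 14.2 in dermal CCR6+, 0 in both dermal Sca1+, and 1.12, 105 and 1.22 in subcutaneous libraries. Epidermal and CCR6+ libraries overlapped, the highest library of all was subcutaneous replicate 2, and 2 of 10 libraries held under 3 counts. Against the same floor, Il22 was at least 76-fold higher in epidermal, 84-fold in dermal CCR6+ and 248-fold in subcutaneous ILCs than in Sca1+ ILCs, the last resting on replicate 2. Il22 exceeded Il17a in TPM by 2.83, 1.69 and 2.34 times in epidermal libraries but reached 0.593 and 0.643 times its level in dermal CCR6+ libraries, and this ratio did not overlap between both groups.

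Il22 has a near-identical copy in B6 mice, Iltifb (ENSMUSG00000090461.2, chromosome 10, 118289629 to 118295038), 79581 bases away on the opposite strand. Both coding sequences are 540 bases long and differ at 9 of them, an identity of 98.33%. The differences are G106A, A150G, C188T, T213C, C217T, G258A, T474C, G486A and T492C, counted from 1 at the A of the start codon with the Il22 base first. Coding bases 98 to 217 are shown because 5 of the differences, in capitals, fall there. Over the whole transcripts both genes differ by 29 substitutions and 1 gap column, and the split of reads can rest on any of these.
Il22: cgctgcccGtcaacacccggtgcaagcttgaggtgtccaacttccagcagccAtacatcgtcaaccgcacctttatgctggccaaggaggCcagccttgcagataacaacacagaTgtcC
Iltifb: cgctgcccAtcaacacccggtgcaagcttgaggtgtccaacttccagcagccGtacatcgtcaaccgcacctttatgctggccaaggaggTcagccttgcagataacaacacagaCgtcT
Iltifb was given 4.23, 3.17 and 5 expected counts in epidermal and 1.05 and 1.06 in dermal CCR6+ libraries, and 0 in all others. It took 1.63%, 4.12% and 3.94% of the counts of both genes in epidermal, 0.784% and 0.697% in dermal CCR6+, and 0% in subcutaneous libraries. Since RSEM divides ambiguous reads, this split between both genes is itself an estimate. Iltifb did not pass the filter.

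Il23r (ENSMUSG00000049093.9, chromosome 6, 67422932 to 67491855), the receptor chain specific for IL-23, had 28, 3 and 0 expected counts in epidermal libraries, 115 and 110 in dermal CCR6+, 0 and 0 in dermal Sca1+, and 7, 232 and 0 in subcutaneous libraries. This was 1, 0.11 and 0 TPM in epidermal, 3.8 and 3.86 in dermal CCR6+, 0 in both dermal Sca1+, and 0.26, 7.86 and 0 in subcutaneous libraries. Both CCR6+ libraries lay above all epidermal ones, 4 of 10 libraries held under 3 counts, and subcutaneous replicate 2 was again the highest. The level was at least 66-fold higher in dermal CCR6+ than in Sca1+ ILCs. All epidermal libraries held Il17a and Il22, while epidermal replicate 3 held no Il23r count, which at its depth allows up to 0.166 CPM.

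None of these 4 genes was called in any of the 6 comparisons when all 10 libraries were fitted. A call was an adjusted p under 0.05 by the quasi-likelihood test of edgeR, adjusted after Benjamini and Hochberg over 16208 genes. Where another test, model, filter or set of libraries is named, the adjusted p comes from that run instead. In the test of any difference among the 4 groups, 3 of the 7 genes were called (17.4% of all genes), and 6 without subcutaneous replicate 2 (12.9%). In epidermal against subcutaneous ILCs, 3 of the 7 genes were called, all lower, where 20.2% of all genes were called and 13.3% were lower. Il17a had a log2 fold change of 1.91 ± 1.49 (SE, adjusted p = 0.429), Il17f of -0.26 ± 1.62 (0.941), Il22 of -1.71 ± 1.42 (0.463) and Il23r of -3.24 ± 2.02 (0.307) by edgeR. Limma called Il17a higher in epidermal ILCs on log2(TPM + 1), with an adjusted p of 0.0290 where 26.4% of all genes were called, and on log2(TPM + 0.1), with 0.0314 where 26% were. Without the filter on low counts, edgeR called Il22 (adjusted p = 0.0374) and Il23r (0.0472) lower, where 16% of all genes were called. Subcutaneous replicate 2 decided these values. It was singled out because it held most counts of these genes in its group. Calls without it, in this and the other comparisons, follow in part from that choice and are descriptive only. Without subcutaneous replicate 2, edgeR called Il17a (adjusted p = 0.00569), Il17f (0.00204) and Il22 (0.0410) higher in epidermal than in subcutaneous ILCs, which made 3 higher and 3 lower of 7 genes where 15.2% of all genes were called, 5.11% higher and 10.1% lower. Il22 then had a log2 fold change of 3.30 ± 0.886, while Il17a and Il17f had no count in the remaining subcutaneous libraries. The difference of Il23r was not called without it either (1.25 ± 1.98, edgeR adjusted p = 0.762).

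**Figure D2:**
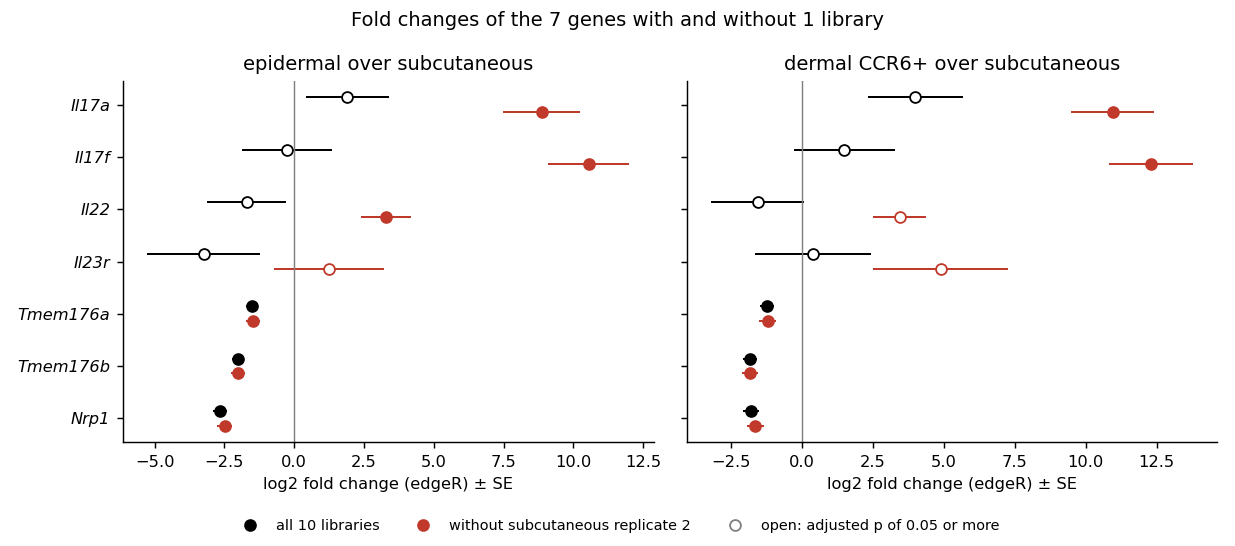
Log2 fold changes ± SE of the 7 genes by edgeR's quasi-likelihood fit, epidermal over subcutaneous on the left and dermal CCR6+ over subcutaneous on the right, with all 10 libraries (black) and without subcutaneous replicate 2 (red). Open symbols mark an adjusted p of 0.05 or more. Fitted values of Il17a and Il17f without that library depend on the prior count, since the remaining subcutaneous libraries held none, and Tmem176a, Tmem176b and Nrp1 hardly move.

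In dermal CCR6+ against dermal Sca1+ ILCs, edgeR called 0 of the 7 genes, where 0.642% of all genes were called. An unadjusted p under 0.05 was reached by 4, namely Il17a, Il22, Il23r and Tmem176a, and DESeq2 (3.44% of all genes called) and limma on log2(TPM + 1) (0.932%) each called 1, Il17a. Both CCR6+ libraries were above both Sca1+ libraries in CPM for 6 of the 7 genes, all except Nrp1. The share of all genes separated in this way was not counted, so this number has no background beside it. The adjusted p was 0.218 for Il17a, 0.308 for Il22, 0.393 for Il23r and 0.482 for Il17f by edgeR. Without subcutaneous replicate 2, which enters this fit through the shared spread, Il17a (edgeR adjusted p = 0.0262) and Il22 (0.0234) were called higher in CCR6+ ILCs, 2 of 7 genes where 0.614% of all genes were called and 0.357% were higher.

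Epidermal against dermal CCR6+ ILCs gave 0 calls among the 7 genes by edgeR, where 6.18% of all genes were called, with 1 gene, Nrp1, at an unadjusted p under 0.05 and called by DESeq2 (12.3% of all genes called). The log2 fold change was -2.09 ± 1.57 for Il17a, -1.75 ± 1.78 for Il17f, -0.15 ± 1.55 for Il22 and -3.65 ± 2.15 for Il23r. For 6 of the 7 genes, all except Il22, every epidermal library was below every CCR6+ library in CPM. Here too, the share of all genes separated in this way was not counted. Leaving out subcutaneous replicate 2 left the number of calls at 0 (5.36% of all genes called).

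Epidermal against dermal Sca1+ ILCs also gave 0 calls by edgeR (11.4% of all genes were called). The unadjusted p was under 0.05 for Il17a, Il22 and Nrp1, DESeq2 called 1 gene (18% of all genes called) and limma on log2(TPM + 1) called 2 (14.9%). The edgeR adjusted p was 0.0854 for Il17a and 0.0816 for Il22. Without subcutaneous replicate 2 these became 0.00810 and 0.00340, and Il17f was called too (edgeR adjusted p = 0.0488, log2 fold change 3.10 ± 0.812), so that 3 of 7 genes were higher in epidermal ILCs where 10.1% of all genes were called and 2.41% were higher.

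In dermal CCR6+ against subcutaneous ILCs, 3 of the 7 genes were called, all lower (7.46% of all genes called, 3.71% lower), and none was a cytokine or receptor gene. Il17a had a log2 fold change of 3.99 ± 1.67 (edgeR adjusted p = 0.193). It was called higher in CCR6+ ILCs by limma on log2(TPM + 1), with an adjusted p of 0.00229 where 12.2% of all genes were called, by limma on log2(TPM + 0.1), with 0.0150 where 11.7% were, and by edgeR without the filter, with an adjusted p of 0.00569 where 8.89% were. When subcutaneous replicate 2 was left out, Il17a (edgeR adjusted p = 0.00739) and Il17f (0.00337) were called higher, making 5 of 7 where 5.21% of all genes were called, 2.84% higher and 2.36% lower. Dermal Sca1+ against subcutaneous ILCs also had 3 of 7 called, all lower (2.2% of all genes called, 0.993% lower), without a cytokine gene among them. The same held with that library left out, again with 3 lower (1.37% of all genes called, 0.501% lower).

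Subcutaneous replicate 2 was the highest library of its group in the 5 lymphocyte genes named next. Cxcr5, a chemokine receptor of follicle-homing cells, was at 0, 23.1 and 0 CPM in subcutaneous replicates 1, 2 and 3, and Ncr1, which encodes the receptor NKp46, at 2.53, 63.6 and 0 CPM. Cd4 stood at 7.2, 35.5 and 0 CPM, Cd3e, part of the T cell receptor complex, at 11.7, 48.0 and 1.98 CPM, and Trdc, the constant region of the γδ T cell receptor, at 2.07, 38.6 and 1.51 CPM. These 5 genes were chosen after their values were seen. The 11 T cell receptor genes together summed to 585, 953 and 925 CPM in these libraries, against 852 to 1011 CPM in epidermal, 1168 and 1103 in dermal CCR6+ and 785 and 704 in dermal Sca1+ libraries. Cd3e and Trdc belong to this list, whose sum was close in subcutaneous replicates 2 and 3. The list as a whole thus did not set replicate 2 apart from replicate 3. The part of T cells in the result was not tested.

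The 7 markers of IL-17-producing γδ T cells summed to 416, 195 and 314 CPM in epidermal libraries, 364 and 439 in dermal CCR6+, 115 and 109 in dermal Sca1+ and 29.9, 86.6 and 23.8 CPM in subcutaneous libraries. This sum is lower in each Sca1+ and subcutaneous library than in each epidermal and CCR6+ library. The gene 5830411N06Rik held most of it in epidermal and CCR6+ libraries. The number of these markers at 0 was 0 to 1 in epidermal, 0 and 1 in dermal CCR6+, 0 and 2 in dermal Sca1+, and 0 to 3 in subcutaneous libraries. Blk, a kinase of these cells, was at 8.45, 6.82 and 0 CPM in epidermal, 20.1 and 8.58 in dermal CCR6+, 0.57 and 0 in dermal Sca1+ and 0.07, 7.36 and 0 CPM in subcutaneous libraries. It was called in 0 comparisons by edgeR. Of 6 markers measured, 3 were higher and 0 lower in epidermal than in subcutaneous ILCs (20.2% of all genes called), namely 5830411N06Rik, Trdv4 and Cd163l1. The Cd163l1 call was lost under 5 of 20 alternatives. Sox13 was lower in epidermal than in dermal Sca1+ ILCs (log2 fold change -2.16), without a call. The part of these cells in the levels of Il17a and Il17f was not tested.

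**Figure D3:**
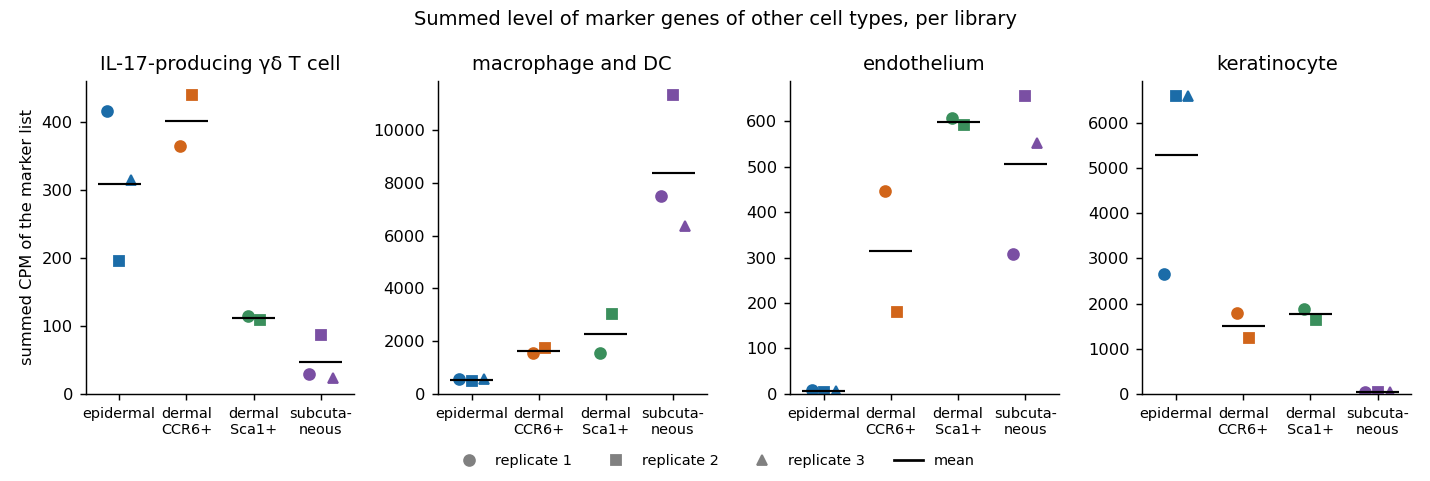
Summed CPM of 4 marker lists in each library, for IL-17-producing γδ T cells (7 genes), macrophages and dendritic cells (15), endothelium (9) and keratinocytes (8). Each symbol is a library and the line is the group mean. The γδ T cell markers are highest in epidermal and dermal CCR6+ libraries, and macrophage markers in subcutaneous ones.

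Tmem176a and Tmem176b encode related membrane proteins found in type 3 lymphocytes and in myeloid cells, where they act as cation channels of intracellular membranes. They were the most abundant of the 7 genes and were highest in subcutaneous ILCs. Tmem176a (ENSMUSG00000023367.14, chromosome 6, 48840919 to 48847071) had 395, 382 and 416 TPM in epidermal libraries, 411 and 474 in dermal CCR6+, 229 and 294 in dermal Sca1+, and 833, 1007 and 1185 in subcutaneous libraries. Tmem176b (ENSMUSG00000029810.15, chromosome 6, 48833818 to 48841496) had 562, 462 and 509 TPM in epidermal, 492 and 588 in dermal CCR6+, 301 and 494 in dermal Sca1+, and 1588, 1793 and 2066 in subcutaneous libraries. Subcutaneous libraries lay above all others in both genes, and Sca1+ libraries were the lowest in Tmem176a. The lowest expected count of either gene in any library was 2638, so counting error is small here.

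Tmem176a was lower than in subcutaneous ILCs by a log2 fold change of -1.50 ± 0.220 in epidermal (edgeR adjusted p = 0.000898), -1.23 ± 0.251 in dermal CCR6+ (0.0149) and -2.02 ± 0.260 in dermal Sca1+ ILCs (0.00314). For Tmem176b these were -2.02 ± 0.218 in epidermal (edgeR adjusted p = 0.000129), -1.83 ± 0.251 in dermal CCR6+ (0.00193) and -2.30 ± 0.257 in dermal Sca1+ ILCs (0.00144). Without dermal CCR6+ replicate 2 or replicate 1, the dermal CCR6+ call of Tmem176a was lost, with an edgeR adjusted p of up to 0.0974, and its Sca1+ call was lost without Sca1+ replicate 1 (0.0505). Between the other groups neither gene was called. CCR6+ against Sca1+ ILCs gave 0.79 ± 0.266 for Tmem176a (edgeR adjusted p = 0.317) and 0.47 ± 0.258 for Tmem176b (0.528).

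The spans of both genes overlap by 578 bases on opposite strands, and the library preparation does not mark strand. Strand therefore cannot assign reads from that stretch, but whether it lies in exons of both genes was not examined. The expected counts of both genes were whole numbers in every library. The ratio of Tmem176b to Tmem176a in TPM was 1.42, 1.21 and 1.22 in epidermal, 1.2 and 1.24 in dermal CCR6+, 1.32 and 1.68 in dermal Sca1+, and 1.91, 1.78 and 1.74 in subcutaneous libraries. Every subcutaneous library was above every other library in this ratio.

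**Figure D4:**
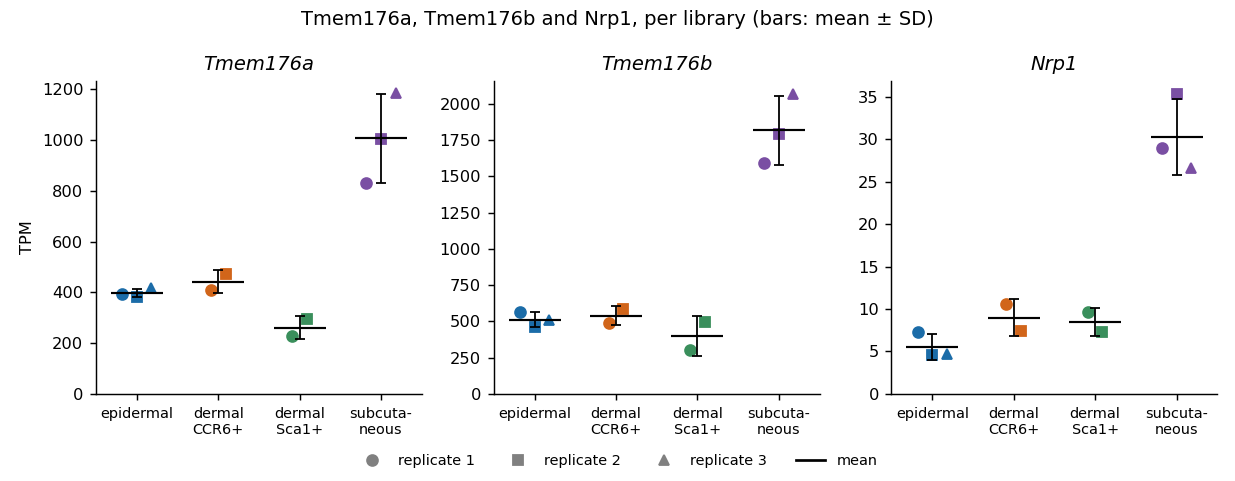
TPM of Tmem176a, Tmem176b and Nrp1 in each library, by group, with the mean and SD of each group in black and replicates marked by symbol shape. Subcutaneous libraries lie above all others in all 3 genes, at 833 to 1185, 1588 to 2066 and 26.6 to 35.3 TPM.

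Nrp1 (ENSMUSG00000025810.8, chromosome 8, 128358604 to 128503363) encodes neuropilin-1, a co-receptor for semaphorins and vascular endothelial growth factor that marks lymphoid tissue inducer cells among type 3 ILCs and is also carried by endothelium and macrophages. It had 7.27, 4.55 and 4.68 TPM in epidermal libraries, 10.5 and 7.44 in dermal CCR6+, 9.61 and 7.32 in dermal Sca1+, and 29.0, 35.3 and 26.6 in subcutaneous libraries. Every subcutaneous library lay above every other, and every epidermal library lay below every dermal one. Relative to subcutaneous ILCs, the log2 fold change was -2.66 ± 0.257 in epidermal (edgeR adjusted p = 6.69e-05), -1.80 ± 0.288 in dermal CCR6+ (0.00453) and -1.89 ± 0.290 in dermal Sca1+ ILCs (0.00813). The Sca1+ call was lost without Sca1+ replicate 2 (edgeR adjusted p = 0.0650), and the CCR6+ call without dermal CCR6+ replicate 2 (0.0650). Epidermal differed from dermal CCR6+ ILCs by -0.86 ± 0.268, which was not called (edgeR adjusted p = 0.0968).

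Macrophage markers were, like Nrp1, Tmem176a and Tmem176b, highest in subcutaneous libraries, and endothelial markers were lowest in epidermal libraries. The 15 macrophage and dendritic cell markers, whose sums are given above, had 13 lower in epidermal than in subcutaneous ILCs, 9 lower in dermal CCR6+ and 2 lower in dermal Sca1+ ILCs (13.3%, 3.71% and 0.993% of all genes lower). Lyz2, a lysozyme of myeloid cells, was at 0.1, 0 and 0.2 CPM in epidermal, 161 and 149 in dermal CCR6+, 248 and 396 in dermal Sca1+ and 2738, 4505 and 2318 CPM in subcutaneous libraries. Of the 15 markers, 6 to 9 were at 0 in epidermal libraries, Mrc1, Itgax and Fcgr1 in all 3 of them. The 9 endothelial markers summed to 3.90 to 7.86 CPM in epidermal, 447 and 181 in dermal CCR6+, 607 and 593 in dermal Sca1+ and 309 to 657 in subcutaneous libraries. Against subcutaneous ILCs, edgeR called all 9 lower in epidermal ILCs (13.3% of all genes lower), with a median log2 fold change of -11.18. In both dermal groups, whose sums overlapped the subcutaneous range, the median was -0.82 for CCR6+ and 0.077 for Sca1+ ILCs. Cdh5, the cadherin of endothelial junctions, was at 0 in all epidermal libraries. The 8 fibroblast markers summed to 0.487 to 18.1 CPM in epidermal, 2131 and 1232 in dermal CCR6+, 2601 and 3781 in dermal Sca1+ and 2893 to 4343 in subcutaneous libraries, and the 8 mast cell markers to 0.271 to 4.87, 49.7 and 37.3, 348 and 428, and 157 to 350 CPM in the same groups. The part of these cell types in the levels of Nrp1, Tmem176a and Tmem176b was not tested.

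Of the ligands that induce type 3 cytokines, 8 were listed and 6 had enough counts. Il23a, the chain specific for IL-23, was at 0 in all 10 libraries, and Il12b, its partner chain, averaged 0 CPM in epidermal and dermal Sca1+, 0.289 ± 0.408 in dermal CCR6+ and 0.331 ± 0.443 CPM in subcutaneous ILCs (SD, n = 3, 2, 2 and 3 for epidermal, CCR6+, Sca1+ and subcutaneous here and below). In epidermal against subcutaneous ILCs, 3 of the 6 were lower and 0 higher (13.3% of all genes lower), and the median log2 fold change was -5.83, beside -0.02 over all genes. Il1b, which encodes the inflammasome product IL-1β, was at 0 in all 3 epidermal libraries, 6.93 and 6.93 in dermal CCR6+, 16.0 and 39.8 in dermal Sca1+ and 57.5, 102 and 29.5 CPM in subcutaneous libraries (edgeR adjusted p = 7.93e-05, epidermal against subcutaneous). Il6 averaged 0.215 ± 0.331 CPM in epidermal and 147 ± 91.6 in subcutaneous ILCs (edgeR adjusted p = 0.000184). Tnfsf15, the TNF family ligand TL1A, was also called lower, at 0 in epidermal and 2.75 ± 0.819 CPM in subcutaneous ILCs, a call lost with a replicate block, from the titles as well as from the leading numbers of the file labels (edgeR adjusted p up to 0.0686). Tgfb1 was lower in epidermal, at 223 ± 47.1 CPM, than in dermal CCR6+ ILCs, at 450 ± 69.3 CPM (edgeR adjusted p = 0.0256), and than in dermal Sca1+ ILCs (0.0238). Both calls were lost without epidermal replicate 2 or 3 and without either library of the dermal group compared, and by limma on both log2(TPM) scales, and the CCR6+ call also under the block by title number and with only both groups fitted. With subcutaneous replicate 2 left out, 4 of the 6 ligands fell in epidermal relative to subcutaneous ILCs (10.1% of all genes lower).

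**Figure D5:**
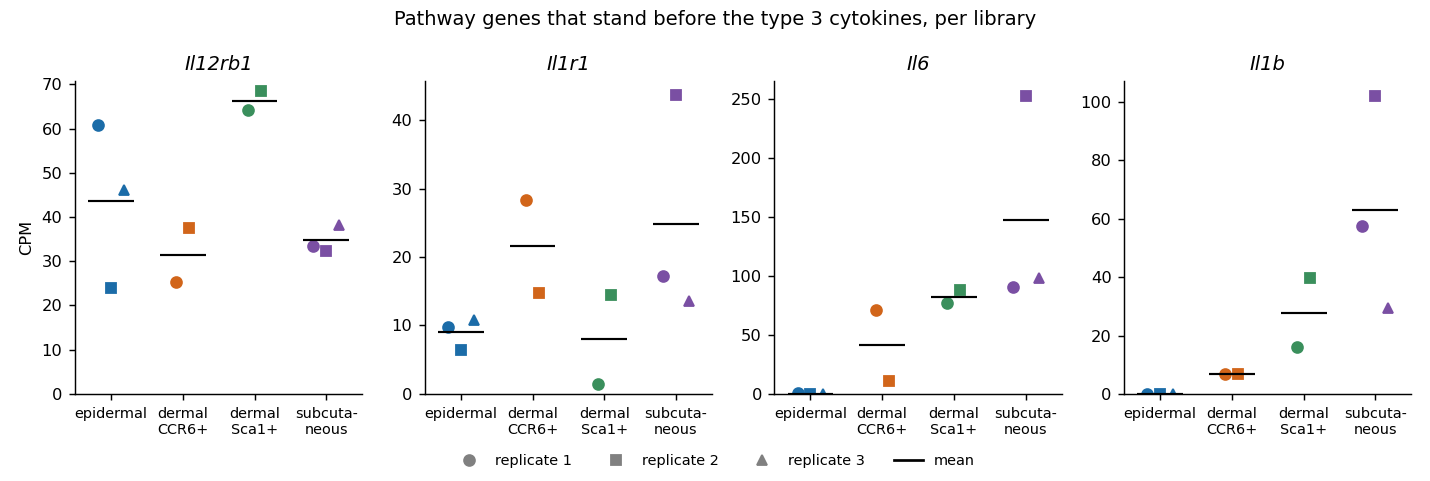
CPM of Il12rb1, Il1r1, Il6 and Il1b in each library, by group, with the mean of each group as a line. Il12rb1 is found in every library, from 24.0 to 68.5 CPM, and Il1b is at 0 in all epidermal ones.

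Among the 15 receptor chains and signalling genes for IL-23, IL-1 and IL-6, 2 were higher and 5 lower in epidermal than in subcutaneous ILCs, with a median of -0.55. Over all genes, 20.2% were called and 13.3% were lower. The list counts became 2 higher and 3 lower without subcutaneous replicate 2 (15.2% of all genes called). The shared receptor chain gene Il12rb1 was found in every library, at 60.9, 24.0 and 46.1 CPM in epidermal, 25.2 and 37.5 in dermal CCR6+, 64.2 and 68.5 in dermal Sca1+ and 33.5, 32.4 and 38.3 CPM in subcutaneous libraries. It was not called in any of the 6 comparisons by edgeR, and neither was the IL-1 receptor gene Il1r1, which averaged 9.02 ± 2.28 CPM in epidermal, 21.6 ± 9.64 in dermal CCR6+, 7.99 ± 9.23 in dermal Sca1+ and 24.8 ± 16.4 CPM in subcutaneous ILCs. Socs3, the feedback inhibitor of STAT3 signalling, was lower in epidermal ILCs, at 19.6 ± 1.59 CPM, than in subcutaneous ILCs, at 216 ± 32.8 (edgeR adjusted p = 5.35e-05). Stat4 averaged 15.4 ± 8.33 CPM in epidermal and 149 ± 38.3 in subcutaneous ILCs (edgeR adjusted p = 0.000366), and Il6st, the signalling chain of the IL-6 receptor, 14.4 ± 4.48 CPM in epidermal and 180 ± 31.0 in subcutaneous ILCs (0.000989). Tgfbr1, a TGF-β receptor, was higher, at 190 ± 50.5 CPM in epidermal and 44.3 ± 20.3 in subcutaneous ILCs (edgeR adjusted p = 0.00284).

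Of 13 transcription factors of type 3 lymphocytes, 3 were higher and 3 lower in epidermal than in subcutaneous ILCs (median -0.40, 20.2% of all genes called). In dermal CCR6+ against subcutaneous ILCs, 3 were higher and 0 lower (7.46% of all genes called). These counts were 2 and 3, and 1 and 0, without subcutaneous replicate 2 (15.2% and 5.21% of all genes called). Maf, a factor that takes part in IL-17 and IL-22 production, averaged 178 ± 36.7 CPM in epidermal and 55.2 ± 17.5 in subcutaneous ILCs (edgeR adjusted p = 0.00125). Rora, a nuclear receptor gene that type 2 ILCs also need, was lower, at 847 ± 71.4 CPM in epidermal and 2116 ± 280 in subcutaneous ILCs (edgeR adjusted p = 0.000254), and was lower in epidermal than in both dermal groups. Nfkbiz, an IκB protein induced by IL-1 and IL-17, averaged 159 ± 123 CPM in epidermal and 1344 ± 381 in subcutaneous ILCs (edgeR adjusted p = 0.00221). Hif1a, the hypoxia-induced factor, was lower as well, at 181 ± 51.4 CPM in epidermal and 364 ± 63.9 in subcutaneous ILCs (edgeR adjusted p = 0.0106).

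Further genes of type 3 ILCs moved in both directions, with 3 higher and 4 lower of 11 in epidermal against subcutaneous ILCs (20.2% of all genes called), and 2 and 3 of 10 without subcutaneous replicate 2 (15.2%). Lta, which encodes lymphotoxin α, averaged 137 ± 3.83 CPM in epidermal and 6.07 ± 4.53 in subcutaneous ILCs (edgeR adjusted p = 0.000788). Csf2, which encodes the growth factor GM-CSF, averaged 52.1 ± 3.09 CPM in epidermal, 38.9 ± 24.8 in dermal CCR6+, 298 ± 59.0 in dermal Sca1+ and 969 ± 159 in subcutaneous ILCs. Within the dermis, CCR6+ ILCs had less of it than Sca1+ ILCs, by a log2 fold change of -2.94 ± 0.400 (edgeR adjusted p = 0.00948), a call lost without dermal Sca1+ replicate 1 and with only both groups fitted. Tnfsf11, which encodes RANKL, averaged 25.3 ± 5.0 CPM in epidermal and 119 ± 11.5 in subcutaneous ILCs (edgeR adjusted p = 5.98e-05). Gpr183, an oxysterol receptor that positions ILCs, averaged 159 ± 7.50 CPM in epidermal and 463 ± 70.8 in dermal Sca1+ ILCs (edgeR adjusted p = 0.000287).

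The receptors for the cytokines were measured in the same libraries. Of 10 chains, 4 were higher and 1 lower in epidermal than in subcutaneous ILCs (median 1.34, 20.2% of all genes called), and 3 and 1 without subcutaneous replicate 2 (15.2%). Il17ra averaged 127 ± 69.8 CPM in epidermal, 98.3 ± 15 in dermal CCR6+, 141 ± 36.1 in dermal Sca1+ and 102 ± 25.8 CPM in subcutaneous ILCs and was not called in any of the 6 comparisons by edgeR. Its partner Il17rc was higher in epidermal, at 41.1 ± 14.6 CPM, than in subcutaneous ILCs, at 9.71 ± 6.33 (edgeR adjusted p = 0.0383), a call lost without subcutaneous replicate 2 or 3 or epidermal replicate 2 or 3, and under both replicate blocks. Il22ra1, a chain of the IL-22 receptor, averaged 1.23 ± 0.339 CPM in epidermal and at most 0.356 ± 0.616 CPM in the other groups. It was not called by edgeR. Il22ra2, the soluble inhibitor of IL-22, averaged 4.01 ± 2.32 CPM in epidermal ILCs and was at 0 in subcutaneous ILCs (edgeR adjusted p = 0.0150), a call lost without epidermal replicate 3 and under both replicate blocks (edgeR adjusted p up to 0.0617). Il17rb, the receptor for IL-25, averaged 105 ± 40.1 CPM in epidermal and 17.9 ± 2.09 in subcutaneous ILCs (edgeR adjusted p = 0.000952), and Il20rb, a receptor chain for IL-20 and IL-24, 62.4 ± 24.0 CPM in epidermal and 0.463 ± 0.802 in subcutaneous ILCs (0.00104). Il10ra, the IL-10 receptor chain, was the 1 lower, at 76.4 ± 50.8 CPM in epidermal and 337 ± 82.8 in subcutaneous ILCs (edgeR adjusted p = 0.00441). Of 9 other IL-17 and IL-10 family cytokine genes, 3 passed the filter and 1 was called, Il10, which was at 0 in epidermal libraries and averaged 6.71 ± 5.35 CPM in subcutaneous ILCs (edgeR adjusted p = 0.0374, above 0.05 without any 1 epidermal or subcutaneous library and under both replicate blocks).

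Genes that IL-17 or IL-22 induces in epithelium were also counted. Of 13 measured, 10 fell and 0 rose in epidermal relative to subcutaneous ILCs (median -4.85, 13.3% of all genes lower). In dermal CCR6+ relative to subcutaneous ILCs, 5 fell and 0 rose (3.71% of all genes lower). With subcutaneous replicate 2 left out, 9 and 4 were lower (10.1% and 2.36% of all genes). The neutrophil chemokine gene Cxcl1 averaged 1.34 ± 1.2 CPM in epidermal, 25.3 ± 17 in dermal CCR6+, 76.0 ± 12.8 in dermal Sca1+ and 286 ± 100 in subcutaneous ILCs (edgeR adjusted p = 0.000151, epidermal against subcutaneous). Cxcl2 averaged 18.7 ± 10.9 CPM in epidermal and 428 ± 17.2 in subcutaneous ILCs (edgeR adjusted p = 3.14e-05), Cxcl3 averaged 1.96 ± 1.03 CPM in epidermal and 56.8 ± 17.2 in subcutaneous ILCs (0.000126), and Cebpd, a transcription factor gene, 3.09 ± 1.55 CPM in epidermal and 75.0 ± 13.8 in subcutaneous ILCs (5.68e-05). Macrophage markers, with their sums above, were also highest in subcutaneous libraries, and their part in this result was not tested.

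Of 19 neuropilin partners and ligands, 1 rose and 6 fell in epidermal relative to subcutaneous ILCs (median -1.53, 20.2% of all genes called and 13.3% lower). The list counts were the same without subcutaneous replicate 2 (15.2% of all genes called). Nrp2, the second neuropilin, was at 0 in epidermal libraries and averaged 10.6 ± 13.2 CPM in dermal CCR6+, 31.9 ± 5.54 in dermal Sca1+ and 19 ± 13.4 in subcutaneous ILCs (edgeR adjusted p = 0.00230, epidermal against subcutaneous). Kdr, a receptor for vascular endothelial growth factor found on endothelium, was likewise at 0 in epidermal libraries and averaged 30.7 ± 16.9 CPM in subcutaneous ILCs (edgeR adjusted p = 0.000448). Sema3d, a secreted semaphorin, was the higher member, at 35.1 ± 18.4 CPM in epidermal and 2.33 ± 2.04 in subcutaneous ILCs (edgeR adjusted p = 0.00406). Sema3c averaged 2.23 ± 1.01 CPM in dermal CCR6+ and 30.9 ± 15.4 in subcutaneous ILCs (edgeR adjusted p = 0.00572), a call lost without dermal CCR6+ replicate 2 and by limma on log2(TPM + 1) and on log2(TPM + 0.1) (adjusted p up to 0.108).

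The genes with the most similar pattern to each of the 7 were ranked by the root mean square difference in log2 CPM over the 10 libraries, after centring each gene, among 13915 genes. The likeness is a description of shared libraries. For Il17a these were Gpr161 (1.06), Arnt2 (1.14) and Lingo4 (1.21), and for Il17f Il17a itself (1.39), Gpr161 (1.39) and Klrb1f (1.48). Lingo4 averaged 22.5 ± 4.03 CPM in epidermal, 12.5 ± 1.40 in dermal CCR6+, 0 in dermal Sca1+ and 1.78 ± 3.03 CPM in subcutaneous ILCs. Il22 was closest to Nat2 (1.27), Mks1 (1.34) and Clip3 (1.34), and Il23r to Slc12a8 (1.07), Adamts8 (1.35) and Kcp (1.42). Slc12a8, Adamts8 and Kcp averaged 0 CPM in dermal Sca1+ ILCs. Their highest group means, in dermal CCR6+ ILCs, were 1.76, 3.15 and 0.583 CPM, so their likeness to Il23r rests on low counts. The spread of Il17a, Il17f, Il22 and Il23r about their own means was 2.64 to 3.08 on the same log2 CPM scale. Tmem176a was closest to Acot7 (0.189), Tmem176b (0.263) and Tmed3 (0.292), and Tmem176b to Tmem176a, Acot7 (0.291) and Fads2 (0.332). Acot7, an acyl-CoA thioesterase gene, averaged 86.8 ± 8.16 CPM in epidermal, 98.7 ± 23.9 in dermal CCR6+, 63.2 ± 2.23 in dermal Sca1+ and 243 ± 29.0 in subcutaneous ILCs. Nrp1 was closest to Grn (0.111), Ctsb (0.302) and Rhob (0.321), and Grn, the gene of the lysosomal protein progranulin, averaged 84.4 ± 14.2 CPM in epidermal, 143 ± 22.5 in dermal CCR6+, 132 ± 21.7 in dermal Sca1+ and 556 ± 146 in subcutaneous ILCs.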

How the data were processed

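RNA-seq gene tables of 10 libraries were used, made with a SMART-Seq low-input kit and Nextera XT, per the labels' protocols, which do not mark strand. Trimmomatic, STAR and RSEM with mm10 were used, per the submitters' processing notes, and no versions or settings are given in the sources used here. The expected counts and TPM are those the authors deposited from RSEM, per the file headers. The deposited FPKM, length and effective length columns were not used for results. Groups came from the titles, since 1 label of each dermal sort names no marker; the series design speaks of triplicates, and 2 libraries of each dermal sort were analysed here. Of 47643 identifiers, 47224 matched a GENCODE M21 symbol.

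Expected counts were rounded, filtered by edgeR 4.0.16 (filterByExpr by group, minimum count 10) and fitted with TMM in 1 quasi-likelihood model of 4 groups in R 4.3.3 (biological coefficient of variation 0.62, two-sided tests, Benjamini-Hochberg adjustment, called under 0.05). Fold changes are on the log2 scale, and their SE is the absolute value over the square root of F. CPM uses TMM library sizes, log2 CPM for likeness a prior count of 2. Titles number the replicates, but same-numbered libraries did not deviate together (correlations from -0.038 to 0.114 by title), so no pairing was used. Alternatives used limma 3.58.1 and DESeq2 1.42.0. The fit was tested on simulated data. The result of 1 gene, which was left out of its list, does not appear in the text. Members and gene lists were chosen with earlier results of these data known. From each list were named the called genes with the smallest adjusted p (at most 4) plus Il12rb1, Il1r1, Il23a, Il12b, Il17ra, Il17rc and Il22ra1; list members outside this rule are named as chosen after their values were seen or as markers. Promoter and coding sequences were searched in Python 3.11.15.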

Additional observations from a re-analysis of the deposited data

How the results depend on the processing

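With all libraries fitted, the calls of Tmem176a, Tmem176b and Nrp1 in epidermal against subcutaneous ILCs held under every alternative run. The cytokine and receptor genes depended on the processing, and the cause was not tested unless stated. Leaving out each library in turn gave 3 to 6 called of the 7 genes in epidermal against subcutaneous, 0 to 2 in CCR6+ against Sca1+, 0 to 3 in epidermal against Sca1+, 1 to 5 in CCR6+ against subcutaneous and 3 to 6 in the test of any difference among groups (3 with all libraries). In the same runs 14.2% to 19%, 0.198% to 0.883%, 6.77% to 11%, 2.46% to 8.53% and 12.8% to 16.5% of all genes were called. Over these runs the log2 fold change in epidermal against subcutaneous ILCs lay between -1.19 and 10.55 for Il17f, -2.28 and 3.30 for Il22, and -5.66 and 1.25 for Il23r. In epidermal against CCR6+ ILCs Il22 lay between -0.72 and 0.087. In CCR6+ against Sca1+ ILCs Nrp1 lay between -0.21 and 0.36. In Sca1+ against subcutaneous ILCs Il17f lay between -3.95 and 7.44. In CCR6+ against subcutaneous ILCs Il22 lay between -2.13 and 3.44, and Il23r between -0.18 and 4.90.

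Shares in brackets are of all genes tested in the same run. Without the filter, the calls were 5 of 7 in epidermal against subcutaneous (16%), 1 in epidermal against CCR6+ (7.86%), 4 in CCR6+ against Sca1+ (2.51%), 7 in Sca1+ against subcutaneous (5.15%), 4 in epidermal against Sca1+ (11.3%) and 7 in the test of any difference (19.1%). DESeq2 called 1 gene in epidermal against CCR6+ (12.3%), 1 in CCR6+ against Sca1+ (3.44%) and 1 in epidermal against Sca1+ (18%), with no adjusted p for Il17f, Il22 and Il23r. With only both groups compared in the fit, 1 gene was called in CCR6+ against Sca1+ (0.335%) and 2 in epidermal against Sca1+ (11%). Limma called 1 gene in CCR6+ against Sca1+ with log2(TPM + 1) (0.932%) and 1 with log2(TPM + 0.1) (0.956%), 2 (14.9%) and 3 (14.6%) in epidermal against Sca1+, and 5 with log2(TPM + 0.1) in the test of any difference (24.1%). Limma on both scales also called Il17a higher than in subcutaneous ILCs, in epidermal and in CCR6+ ILCs. In epidermal against subcutaneous ILCs, limma gave Il17f 1.95 and 4.05 and Il22 0.67 and 1.07 on these scales. It gave Il22 0.81 and 1.24 in CCR6+ against subcutaneous, and Il17f 1.26 with log2(TPM + 0.1) in Sca1+ against subcutaneous.

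Replicates share numbers only. A replicate block by title number gave Il17f 1.91 and Il22 0.48 in epidermal against subcutaneous ILCs and Il22 0.98 in epidermal against CCR6+ ILCs. A block by consecutive runs of the leading numbers in the file labels gave Il17f 0.92, Il22 0.26 and, in epidermal against CCR6+ ILCs, Il22 0.10, with Il22 0.16 in CCR6+ against subcutaneous and 1 of 7, Tmem176a, called in epidermal against Sca1+ ILCs (10.9%). Over all alternatives, genes called among all tested ranged from 2280 to 4281 in epidermal against subcutaneous, 618 to 2028 in epidermal against CCR6+, 35 to 647 in CCR6+ against Sca1+, 157 to 1328 in Sca1+ against subcutaneous, 1192 to 2919 in epidermal against Sca1+ and 435 to 2319 in CCR6+ against subcutaneous ILCs. Il17a and Il23r each had under 3 counts in 4 libraries, and Il17f and Il22 in 2 libraries each, which limits their fold changes.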
